A study of Mus musculus with 16 samples.

Results

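Dispersed myoblasts are muscle precursors that descend from satellite cells, the stem cells of skeletal muscle, and are grown off the muscle fiber on gelatin-coated plates. Their transcriptome was compared between 48 and 72 hr after isolation, the interval in which the study looked for exit from the cell cycle and the onset of differentiation in the absence of the fiber. The arrays were chosen by the growth type in the labels, which gave 8 of the 16 arrays of the series, 4 at 48 hr (replicates 1 to 4) and 4 at 72 hr (replicates 5 to 8). The other 8 arrays carry myoblasts grown on explanted fibers (myofiber-associated) and serve here only for comparison. All samples came from male C57Bl/6J mice of 11 to 13 weeks with no transgene, deletion or drug in the labels. Each dispersed array holds 1 preparation from 1 mouse. The labels do not link arrays of the earlier time to arrays of the later one, and they name no cell sort. The RNA integrity number was at least 7.5 for all samples. The source name in the labels calls every sample myofibers.

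Satellite cells leave quiescence after injury or isolation, proliferate as myoblasts that carry the transcription factors Pax7, Myf5 and MyoD, and then leave the cell cycle, switch on myogenin and fuse into myotubes. New myotubes first build sarcomeres from embryonic, cardiac-type and slow isoforms, and the adult fast isoforms replace them later. A preparation from minced muscle can also carry endothelial cells, pericytes, fibroblasts, Schwann cells, leukocytes and fragments of fibers.

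RNA was hybridized to one-color Agilent arrays, and all values below are log2 of the scanner's signal after normalization of the 8 arrays. Differences are log2 changes, 72 minus 48 hr, with the SE of the fit and adjusted p from limma with Benjamini-Hochberg adjustment over all 20340 genes tested; a gene was called at an adjusted p under 0.01. The share of probes well above background was 54.0% to 59.0% per array at 48 hr and 56.4% to 59.7% at 72 hr. Arrays of 1 time correlated with an r of 0.993 to 0.998 across genes and arrays of different times with 0.985 to 0.990. The first principal component (62.1% of the variance) separated the times, and the second (15.1%) varied among arrays of the same time. All 8 arrays lay on 1 slide. On it, columns 1 and 2 carried the later time and columns 3 and 4 the earlier one, so slide column and time cannot be told apart, whereas each slide row held 2 arrays of each time.

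Between 48 and 72 hr, 2829 of the 20340 genes were called, a background of 13.9%. Of these, 1509 were higher (7.42% of genes tested) and 1320 lower (6.49%) at 72 hr. The falls were larger than the rises: 586 called genes fell at least 2-fold and 232 rose at least 2-fold, and at 4-fold the counts were 115 and 35. No called gene had overlapping groups, which was also true of 31.4% of all genes tested. The median change of all genes was 0.02. Of the 186 called genes named below, 39 lost their call in at least 1 of the 8 fits that left out 1 array, and each of these is given with the number of such fits or the arrays left out. Cxcl9, Dner, Oas2, Pi16, Tcerg1l, Tnfsf11 and Wnt10b could be tested in only 4 of these 8 fits. They passed the minimum median log2 signal of 5 only with all arrays of their brighter time. With normexp background correction, which compresses low signals, the change of 32 of the 186 was more than 1.5 times smaller. Among the rises these were Dner, Il1b, Myf5, Myom3, Plxnc1, Tcerg1l, Tnfsf11, Tnni1, Vmn2r78, Wnt10b and Zim1. Among the falls they were Casq1, Chrdl2, Chrna9, Ckmt2, Cxcl9, Dusp26, Hdc, Ifit1, Irf7, Kcnj8 and Lipe. The falls of Mef2c, Myot, Oas2, Pi16, Plin4, Tfeb, Tnf, Trdn, Trim30a and Vtn shrank as well.

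**Figure D1:**
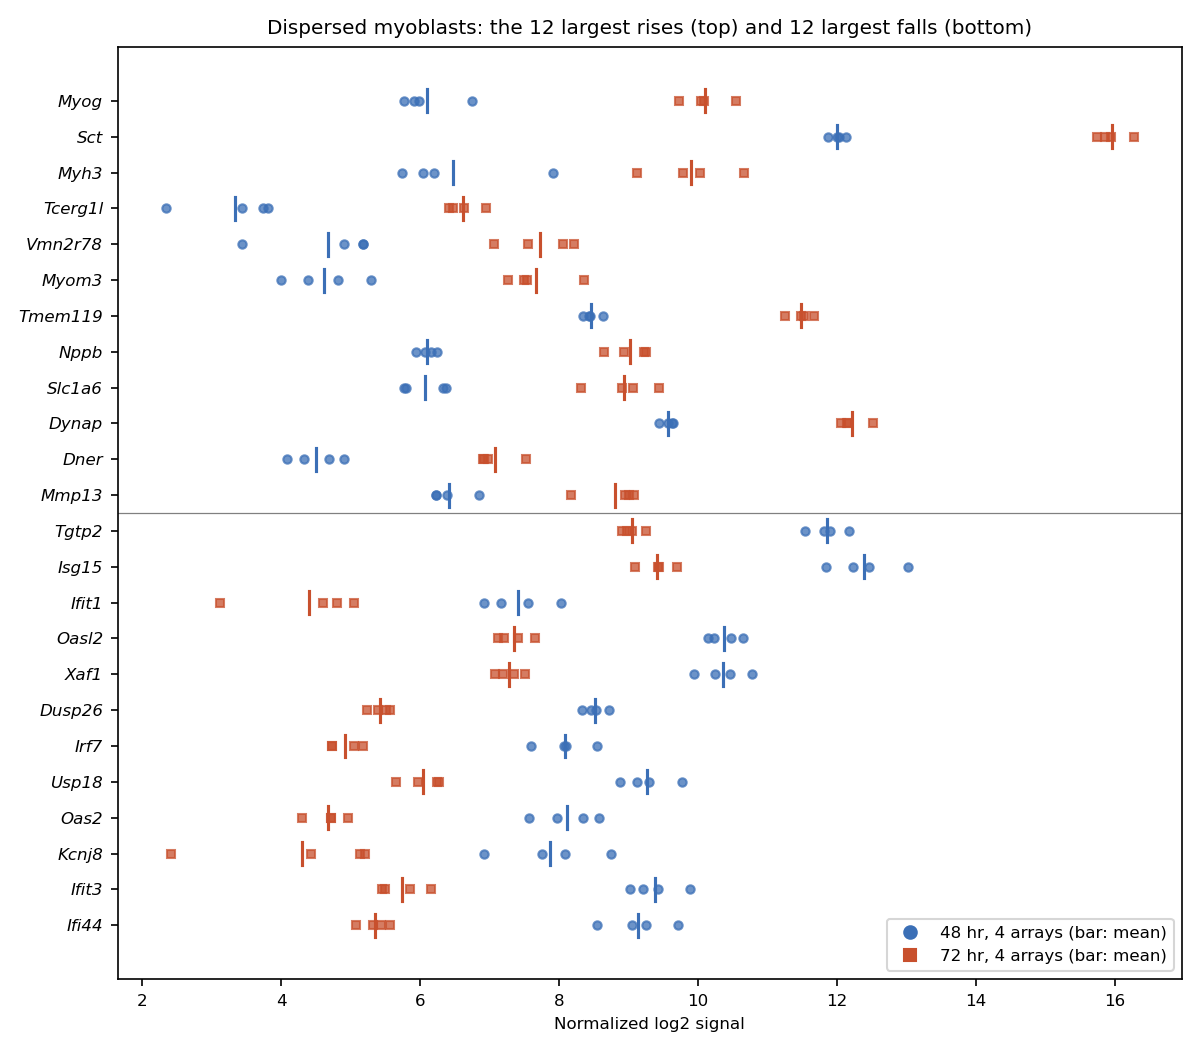
Normalized log2 signal (x axis) of the 12 largest rises and the 12 largest falls among called genes with a symbol in use (Gm names passed over) in dispersed myoblasts, with 1 point for each of 4 arrays at 48 hr (circles) and 72 hr (squares) and vertical bars at the means. Myog, the first row, lay between 5.76 and 6.75 at 48 hr and between 9.73 and 10.55 at 72 hr, and 10 of the 12 falls are genes induced by interferon.

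The largest rise was that of Myog, which encodes myogenin, the factor that commits myoblasts to differentiation. Its log2 signal was 6.75, 5.99, 5.76 and 5.91 at 48 hr and 9.73, 10.04, 10.09 and 10.55 at 72 hr, so the groups lay apart. The rise of 4.00 ± 0.24 is a 16-fold difference (adjusted p = 5.19e-05, limma, n = 4 and 4). The factors that act before myogenin moved little. Myod1 was at 14.62, 14.38, 14.50 and 14.68 at 48 hr and at 14.82, 14.83, 15.00 and 15.28 at 72 hr, and its change of 0.43 ± 0.11 did not pass (adjusted p = 0.0252, limma). Myf5 rose by 0.32 ± 0.07 (adjusted p = 0.0094, limma), a call that was lost without any 1 of 7 of the 8 arrays. Pax7, which marks satellite cells and proliferating myoblasts, changed by 0.19 ± 0.15 (adjusted p = 0.402), and Myf6, the factor of mature fibers, by -0.19 ± 0.17 (adjusted p = 0.469).

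Of the 33 myogenic regulatory factors and partners tested, 9 were called higher (27.3%) and 3 lower (9.09%, near the background of 6.49%), with a median of 0.18. The partners that rose include Hes6 (1.11 ± 0.11), a bHLH factor that promotes muscle differentiation, and Eya4 (0.81 ± 0.12), a transcriptional coactivator that acts upstream of the myogenic factors. Mef2c, a partner of myogenin that is also expressed by endothelium, fell from between 6.96 and 7.36 to between 5.45 and 5.89 (-1.54 ± 0.13). Tcf4 (-0.83 ± 0.06) and Vgll2 (-0.62 ± 0.11, call lost in 6 of 8 fits) were lower too. The count of higher members ranged from 3 to 9 when 1 array at a time was left out, with 3 without 48-hr replicate 2 or 72-hr replicate 7, 4 without 48-hr replicate 3 and 5 without 72-hr replicate 5.

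Among 32 genes of fusion and cell adhesion, 8 were called higher (25%) and 3 lower (9.38%, near the background of 6.49%), with a median of 0.16. Both genes that encode the muscle-specific fusion proteins rose. Gm7325, the older name of myomixer (Mymx), was at 7.05, 5.92, 5.25 and 6.58 at 48 hr and at 9.48, 9.75, 9.68 and 10.16 at 72 hr, an 11.8-fold rise (3.57 ± 0.36, adjusted p = 0.000379, limma). Tmem8c, the older name of myomaker (Mymk), rose by 1.36 ± 0.12, from between 7.01 and 7.42 to between 8.42 and 8.84. The adhesion genes Jam2 (0.70 ± 0.06) and Cdh2 (0.38 ± 0.04), which encode a junctional adhesion molecule and N-cadherin, rose by less. Dysf, which encodes the membrane repair protein dysferlin, fell by 1.46 ± 0.15 and Nfatc2 by 0.96 ± 0.08. The call of Boc (-0.22 ± 0.05) was lost without any 1 of the 8 arrays.

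Of 49 sarcomere components tested, 10 were called higher and 10 lower. Among those that rose were isoforms of developing, cardiac or slow muscle, embryonic myosin heavy chain Myh3 and the slow troponins Tnnt1, Tnni1 and Tnnc1 among them. Myh3 was at 7.91, 5.73, 6.04 and 6.20 at 48 hr and at 9.13, 10.02, 9.79 and 10.66 at 72 hr (3.43 ± 0.51, 10.8-fold, adjusted p = 0.00219, limma). Both groups were spread, replicate 1 being the highest at 48 hr, and they did not overlap. Tnnt1 rose from between 9.65 and 10.12 to between 11.98 and 12.62 (2.34 ± 0.17), and Tnni1 from between 5.60 and 6.18 to between 7.66 and 8.64 (2.34 ± 0.22). Myom3, an M-band protein, was well above background on 2 of 4 arrays at 48 hr and on all 4 at 72 hr (3.04 ± 0.32, 1.57 with normexp). Obsl1, which links the M band to the cytoskeleton, rose by 1.86 ± 0.09 on the brighter of its probes and by 0.77 on the other, which became the brighter one without any 1 of the 72-hr arrays.

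Several of the members that fell are isoforms of adult fast fibers, while Myot, Ldb3 and Myh8 are not particular to them. With 1 array left out, 2 to 8 members were called lower, the count being 2 without 48-hr replicate 2 or 3 or 72-hr replicate 6 or 7, 3 without 72-hr replicate 8 and 4 without 48-hr replicate 1. Mybpc2, fast myosin-binding protein C, fell by 2.34 ± 0.42, Myot, myotilin of the Z disc, by 2.28 ± 0.40, Myh1, fast IIx myosin, by 1.23 ± 0.18, and Myoz1, a Z-disc protein of fast fibers, by 1.84 ± 0.33. Mybpc2 was at 9.88, 9.45, 8.55 and 8.57 at 48 hr and at 7.44, 7.25, 6.52 and 5.90 at 72 hr. The calls of Mybpc2, Myot and Myoz1 were lost in 4, 5 and 5 of 8 fits. At each time the 2 arrays of slide row 1 were higher than the 2 of row 2. A second probe for Myh8, perinatal myosin, gave 0.03 where the brighter one gave -2.21, and the brighter one tracked the Myh4 probe array by array, so the Myh8 value is uncertain; Tnnc1, Myh4, Myh8, Tpm1 and Ldb3 fall outside the rule for naming genes and were picked after their values were seen.

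**Figure D2:**
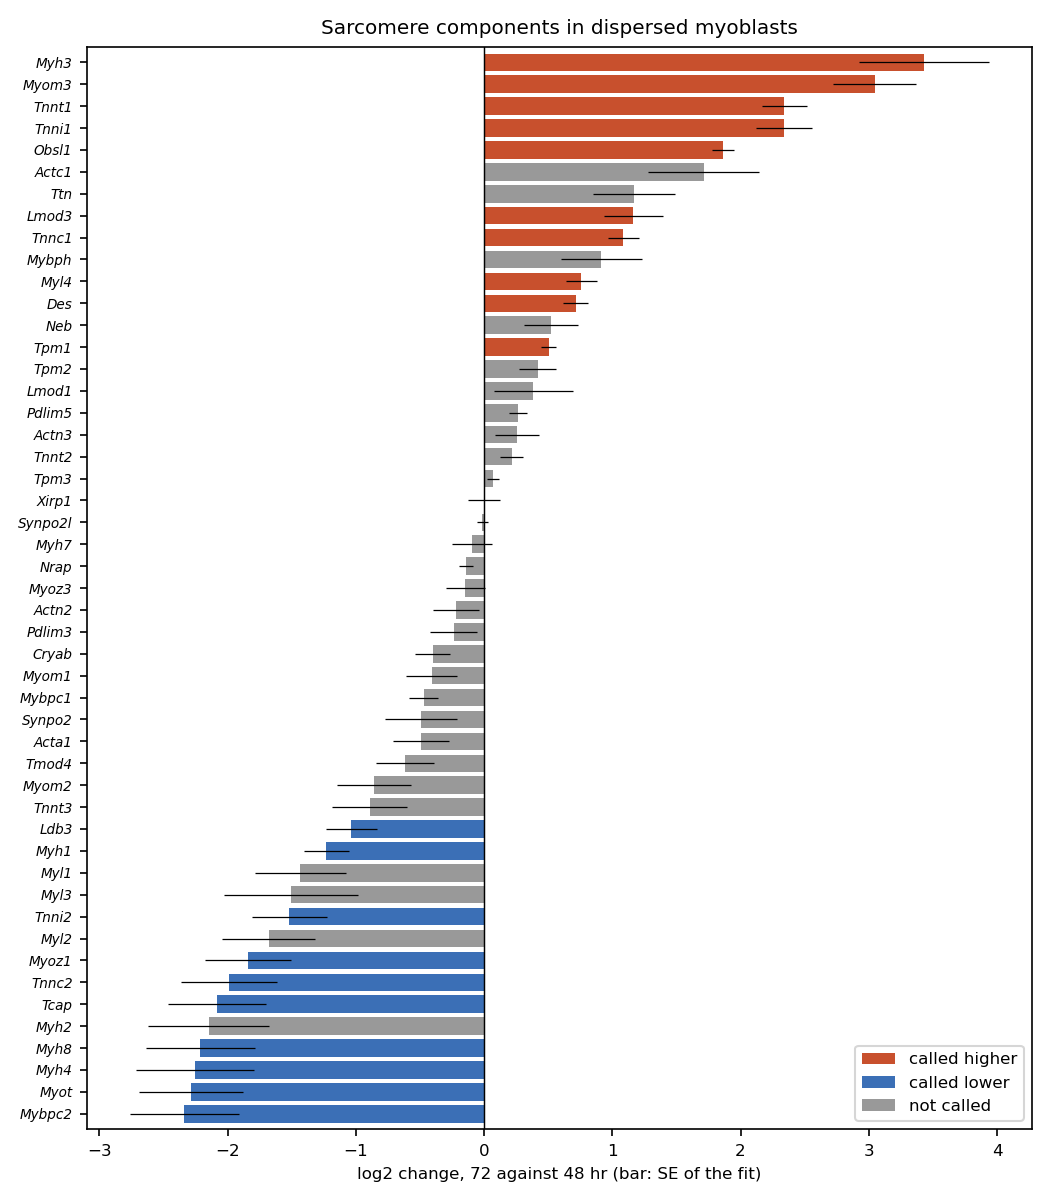
log2 change from 48 to 72 hr in dispersed myoblasts (x axis) of 49 sarcomere components, ordered by size, with the SE of the limma fit on 8 arrays as error bars. The 10 called higher run from Tpm1 (0.50) to Myh3 (3.43) and the 10 called lower from Ldb3 (-1.04) to Mybpc2 (-2.34).

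A separate list of 19 tested genes of adult muscle fibers had a median change of -1.52, with 7 called lower and none higher. Ckm, muscle creatine kinase, was at 10.68, 10.13, 9.51 and 9.17 at 48 hr and at 7.41 to 8.12 on 3 of the 72-hr arrays and 6.94 on replicate 8 (-2.28 ± 0.37, call lost without 48-hr replicate 2 or 72-hr replicate 7). Tnni2, fast troponin I, changed by -1.52 ± 0.29 (call lost in 6 of 8 fits). Summed over the list, the signal ranged from 102200 to 140000 at 48 hr and from 96020 to 115600 at 72 hr, so the sums overlap while the median member fell, and 19 of its 20 members were well above background on all 48-hr arrays. The count called was 10 with slide row as a block, 2 to 5 when 1 array was left out (under 5 without any array but 48-hr replicate 4), and 2 in one fit of all 16 arrays. The median was -1.41 within slide row 1 and -1.70 within row 2.

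Excitation-contraction coupling, the machinery that turns a nerve impulse into calcium release, also had calls on both sides, with 6 of 27 members called higher and 5 lower. Stac3, an adaptor of the calcium channel, rose by 1.51 ± 0.20, the ryanodine receptor Ryr1 by 1.19 ± 0.18, the channel subunit Cacng1 by 0.93 ± 0.14 and junctophilin Jph2 by 0.78 ± 0.12. Triadin Trdn (-2.15 ± 0.41), calsequestrin Casq1 (-2.06 ± 0.39), the channel pore Cacna1s (-1.47 ± 0.19) and the calcium-binding Hrc (-0.97 ± 0.18) were lower. Without 1 array, 1 to 3 members were called lower, whichever array it was, and 3 to 6 higher (3 without 72-hr replicate 7). Trdn, Casq1 and Hrc each lost their call in 6 of 8 fits, and Jph2 without 48-hr replicate 2 or 72-hr replicate 7.

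At the neuromuscular junction, 5 of 18 genes were called higher and 1 lower. Lrrn1 rose most (1.43 ± 0.12), Chrng, the fetal gamma subunit of the acetylcholine receptor, rose from between 7.65 and 8.31 to between 8.87 and 9.29 (0.91 ± 0.16), and the alpha subunit Chrna1 rose by 0.47 ± 0.09. The kinase Musk, which clusters the receptor, rose by 0.60 ± 0.12, and Chrna9 fell by 0.49 ± 0.07. The count higher was 1 to 5 with 1 array left out, 3 or fewer without any array but 72-hr replicate 8, and 1 in the fit of all 16 arrays. Chrng, Chrna1 and Musk lost their calls in 5, 6 and 6 of 8 fits. Klhl40 (1.07 ± 0.16) and the ubiquitin ligase Fbxo32 (1.38 ± 0.14) rose among 20 sarcomere assembly factors, whereas the myosin chaperone Unc45b fell by 2.16 ± 0.19.

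Most metabolic and respiratory genes were not called, but the lists differed. Of 32 genes of mitochondrial biogenesis and fat oxidation 7 were called lower (21.9%, against a background of 6.49%) and 2 higher (6.25%). With 1 array left out 6 to 8 of that list were lower. Of 41 glycolysis, glycogen and phosphocreatine genes 4 were called in each direction (9.76%), and 0 to 2 higher and 0 to 3 lower with 1 array left out. Of 56 respiratory chain subunits 3 were called, all lower (5.36%, near the background of 6.49%). All 3 are isoforms restricted to certain tissues: Cox6a2 (-1.88 ± 0.27) and Cox8b (-1.85 ± 0.31) of heart and skeletal muscle, and Cox4i2 (-0.80 ± 0.13) of lung and vessel walls. Ckmt2, the mitochondrial creatine kinase of muscle, fell by 2.22 ± 0.39 and the glucose transporter Slc2a4 by 0.95 ± 0.18, while Ckb, the creatine kinase that precedes the muscle form, rose by 0.38 ± 0.07 and hexokinase Hk2 by 0.44 ± 0.08. Ppargc1a, a coactivator of mitochondrial biogenesis, rose by 0.81 ± 0.11. With 1 array left out, calls were lost for Slc2a4 in 7 fits, Ckb in 6, Ckmt2 and Hk2 in 5, Cox4i2 in 4 and Cox8b in 3 (without 48-hr replicate 2 or 3 or 72-hr replicate 7).

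The largest falls were mostly in genes induced by interferon, which cells transcribe when STAT and IRF factors bind their promoters. Of 60 such genes tested, 47 were called lower and none higher, with a median of -1.22, against a background of 6.49% called lower. Ifit3, an antiviral RNA-binding protein, was at 9.02, 9.42, 9.21 and 9.88 at 48 hr and at 5.49, 6.15, 5.45 and 5.85 at 72 hr (-3.65 ± 0.22, 12.5-fold lower, adjusted p = 4.9e-05, limma). Isg15, a ubiquitin-like modifier, was at 11.84, 12.46, 12.23 and 13.02 at 48 hr and at 9.09, 9.70, 9.43 and 9.42 at 72 hr, and both of its probes fell (-2.98 and -3.19). No 72-hr array reached the lowest 48-hr array for either gene, and replicate 4 was the highest at 48 hr for both.

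The fall covered several arms of the response. Among the regulators, Irf7, the factor that amplifies the response, fell by 3.16 ± 0.20 and Usp18, the protease that removes Isg15 and dampens signaling, by 3.23 ± 0.21. Among the effectors, the falls were those of Ifi44 (-3.79 ± 0.23), the oligoadenylate synthetases Oas2 (-3.44 ± 0.23), Oasl2 (-3.03 ± 0.15) and Oas1a (-2.57 ± 0.14), Xaf1 (-3.07 ± 0.18), Ifit1 (-3.02 ± 0.43, well above background on 3 of 4 arrays at 72 hr) and Trim30a (-2.30 ± 0.12). Tgtp2, an interferon-induced GTPase outside the list with a near-identical copy that a probe may not separate, fell by 2.81 ± 0.13. The chemokine Cxcl9, which interferon gamma induces, was well above background on all 48-hr arrays and 1 of 4 at 72 hr (-2.24 ± 0.29). The list's count of lower members was 39 to 46 with 1 array left out and 37 of 58 in one fit of all 16 arrays.

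The promoters of Ifit3, Ifit1, Isg15 and Tgtp2 are shown because these genes fell and hold matches to the core of the element that interferon-activated factors bind. They are taken from RefSeq on GRCm38.p6 and run 300 bases from 250 before the start site, 5′ to 3′ on the gene's strand; capitals mark each match to GAAA, any 2 bases and GAAA again on either strand, with overlapping matches joined. Ifit3 (chr19:34583279-34583578, plus strand) and Ifit1 (chr19:34640639-34640938, plus strand) have 2 matches each, Isg15 (chr4:156200769-156201068, minus strand) has 3 that overlap, and Tgtp2 (chr11:49064163-49064462, minus strand) has 1.
Ifit3: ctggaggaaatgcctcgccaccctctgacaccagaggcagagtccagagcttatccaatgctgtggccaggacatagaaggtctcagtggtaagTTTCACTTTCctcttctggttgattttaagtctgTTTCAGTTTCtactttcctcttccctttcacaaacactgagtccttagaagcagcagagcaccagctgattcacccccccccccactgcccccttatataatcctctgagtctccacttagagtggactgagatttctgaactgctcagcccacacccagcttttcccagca
Ifit1: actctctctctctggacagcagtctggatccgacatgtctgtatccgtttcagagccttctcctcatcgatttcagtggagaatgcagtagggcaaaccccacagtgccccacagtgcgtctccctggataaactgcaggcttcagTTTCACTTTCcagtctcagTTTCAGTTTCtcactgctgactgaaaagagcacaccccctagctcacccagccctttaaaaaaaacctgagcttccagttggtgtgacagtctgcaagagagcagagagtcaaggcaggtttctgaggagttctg
Isg15: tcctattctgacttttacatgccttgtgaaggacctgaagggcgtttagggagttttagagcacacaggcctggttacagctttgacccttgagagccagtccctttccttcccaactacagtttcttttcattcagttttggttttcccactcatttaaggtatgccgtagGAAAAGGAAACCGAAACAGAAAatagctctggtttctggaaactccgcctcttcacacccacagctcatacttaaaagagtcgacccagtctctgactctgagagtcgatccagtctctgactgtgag
Tgtp2: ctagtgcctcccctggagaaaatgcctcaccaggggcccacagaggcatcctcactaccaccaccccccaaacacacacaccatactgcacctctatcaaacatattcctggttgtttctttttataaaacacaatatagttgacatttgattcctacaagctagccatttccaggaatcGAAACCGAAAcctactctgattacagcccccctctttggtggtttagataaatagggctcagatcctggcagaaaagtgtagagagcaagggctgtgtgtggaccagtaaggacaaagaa

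The matches lie 156 and 122 bases before the start site in Ifit3, 104 and 85 in Ifit1, 78, 72 and 66 in Isg15, and 70 in Tgtp2. Of the 47 interferon-stimulated genes called lower, 34 were in the RefSeq promoter table and 17 of these (50%) held the motif, as did 5 of 10 members that were not called. A gene counts here if any of its promoters matches. Of the 10803 genes tested that were in the table, 3.63% held it, as did 7.43% of the 807 called lower and 2.51% of the 918 called higher. Taken one by one, 3.44% of all 32851 promoters held it.

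The 2 acetylcholine receptor genes that rose are shown because both hold CAGCTG, an E-box of the kind that MyoD and myogenin bind. Capitals mark CAGCTG, which reads the same on both strands. Chrng (chr1:87205561-87205860, plus strand) holds it 155 and 132 bases before the start site and Chrna1 (chr2:73580289-73580588, minus strand) 92 and 44 bases before.
Chrng: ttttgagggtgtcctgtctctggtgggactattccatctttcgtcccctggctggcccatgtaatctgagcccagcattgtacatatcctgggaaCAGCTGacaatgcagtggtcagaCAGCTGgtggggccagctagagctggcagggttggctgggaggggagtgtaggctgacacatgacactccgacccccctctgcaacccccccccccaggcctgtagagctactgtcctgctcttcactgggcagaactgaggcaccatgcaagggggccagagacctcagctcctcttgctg
Chrna1: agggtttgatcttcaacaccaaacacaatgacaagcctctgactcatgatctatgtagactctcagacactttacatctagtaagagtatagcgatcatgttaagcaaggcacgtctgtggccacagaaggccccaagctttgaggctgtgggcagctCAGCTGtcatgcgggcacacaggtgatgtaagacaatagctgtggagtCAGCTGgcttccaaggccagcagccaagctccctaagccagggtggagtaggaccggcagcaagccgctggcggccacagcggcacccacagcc

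CAGCTG occurred in a promoter of 9 of 25 genes (36%) called higher in the lists of sarcomere components, junction, coupling, fusion and myogenic factors, of 5 of 15 (33.3%) called lower, and of 18.1% of all genes tested. Taken one by one, 16.3% of all promoters held it.

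Genes of endothelial cells, which line blood vessels, fell almost without exception: 29 of 30 were called lower (median -1.47), and 21 of 29 in one fit of all 16 arrays. The lowest change was that of Tek, the angiopoietin receptor, at 9.39, 9.49, 9.52 and 9.57 at 48 hr and at 7.28, 7.37, 7.36 and 7.08 at 72 hr (-2.22 ± 0.07, adjusted p = 8.81e-06, limma). Tie1 (-2.06 ± 0.12), Mmrn2 (-1.94 ± 0.09) and the VEGF receptor Kdr (-1.90 ± 0.11, with -0.37 on another probe, which was the brighter one over 16 arrays) fell by about as much. All 30 members were well above background on all 8 arrays, and their summed signal went from between 281400 and 394600 to between 94780 and 137900. In bulk RNA, fewer endothelial cells and less of these transcripts per cell cannot be told apart.

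Markers of other cells that a muscle preparation can hold were lower in part. Of 19 pericyte and smooth muscle genes, 6 were called lower and 2 higher. The pericyte genes Kcnj8 (-3.58 ± 0.66), Abcc9 (-2.68 ± 0.39), which together form a potassium channel, and Vtn (-2.66 ± 0.28) fell, while the contractile gene Cnn1 rose by 1.92 ± 0.32. Kcnj8 ranged from 6.92 to 8.75 at 48 hr and from 2.41 to 5.21 at 72 hr, well above background on 3 of the 4 arrays at 72 hr, and its call was lost without 48-hr replicate 2, 3 or 4 or 72-hr replicate 6 (adjusted p up to 0.0195, limma). Its change was -1.82 with normexp background correction. Cnn1 lost its call in 5 of 8 fits, and the list had 2 or 3 members called lower without 48-hr replicate 2, 3 or 4 or 72-hr replicate 6. The list's summed signal did not follow the pericyte genes, at 133700 to 206900 and then 171700 to 272000. Among Schwann cell genes, 8 of 16 were called lower (median -0.86), among them Foxd3 by 1.23 ± 0.15, with a summed signal of 19560 to 23730 and then 13580 to 16440; the defining marker Erbb3 was dim throughout.

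Adipocyte, leukocyte, mast cell, fibroblast and tendon genes had calls as follows. Of 6 adipocyte genes tested 4 were called lower, Fabp4 by 1.72 ± 0.15, Plin4 by 1.68 ± 0.27 (call lost without 48-hr replicate 2 or 72-hr replicate 7), Lipe by 1.24 ± 0.13 and Pparg by 1.02 ± 0.10, of which Fabp4 and Pparg are also known in endothelium; Lep, Cidea and Adrb3 were dim on all arrays, and the summed signal went from 61310 to 98540 at 48 hr to 21640 to 26750 at 72 hr. Of 24 leukocyte genes 5 were called lower, including Tyrobp (-1.10 ± 0.16), Cd68 (-0.97 ± 0.09), Fcer1g (-0.82 ± 0.13) and Itgb2 (-0.79 ± 0.11), and Laptm5 was called higher (0.91 ± 0.09); the sums were 31930 to 38540 and 25140 to 30100, and Spi1 was dim. The mast cell genes Hdc (-2.24 ± 0.19) and Kit (-1.42 ± 0.13) were the 2 of 8 that were called, with sums of 47490 to 101900 and 35590 to 74650, and Ms4a2 was dim. Fibroblast genes had 3 of 20 called lower (15%) and 2 higher (10%, near the background of 7.42%). The 3 were Ly6c1 (-2.43 ± 0.12) and Ly6a (-2.33 ± 0.08), surface antigens that endothelium and interferon-treated cells also carry, and Pi16 (-1.57 ± 0.26, call lost without 72-hr replicate 7); the sums were 203600 to 253300 and 142500 to 203800. Of 8 tendon genes 2 were lower, 0 without 48-hr replicate 2, 3 or 4 or 72-hr replicate 7, and Mkx was higher (0.80 ± 0.07), with overlapping sums of 18780 to 22820 and 17600 to 21410; Tnmd, Kera and Chodl were dim.

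Myoblast markers had calls in the other direction. All 12 were well above background on all 8 arrays, 5 were called higher and none lower (median 0.31), and the summed signal went from 193000 to 219100 at 48 hr to 226700 to 299400 at 72 hr. The count was 2 without 48-hr replicate 1, 2, 3 or 4 or 72-hr replicate 5 or 7, and 0 in the fit of all 16 arrays. Megf10, a receptor of activated satellite cells, rose by 0.97 ± 0.13 and Des, the muscle intermediate filament, by 0.72 ± 0.10. Among 27 satellite cell genes 3 were called in each direction, 11.1% against backgrounds of 7.42% higher and 6.49% lower. Megf10, Pax3 (0.62 ± 0.11) and Ncam1 (0.43 ± 0.08) were higher, and Chrdl2 (-1.10 ± 0.07), the HGF receptor Met (-0.50 ± 0.08) and Dag1 (-0.41 ± 0.07) lower. Pax3, Ncam1 and Dag1 lost their calls in 6 of 8 fits each and Met without 72-hr replicate 6. The part of these shifts in cell type markers in the results that follow was not tested.

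**Figure D3:**
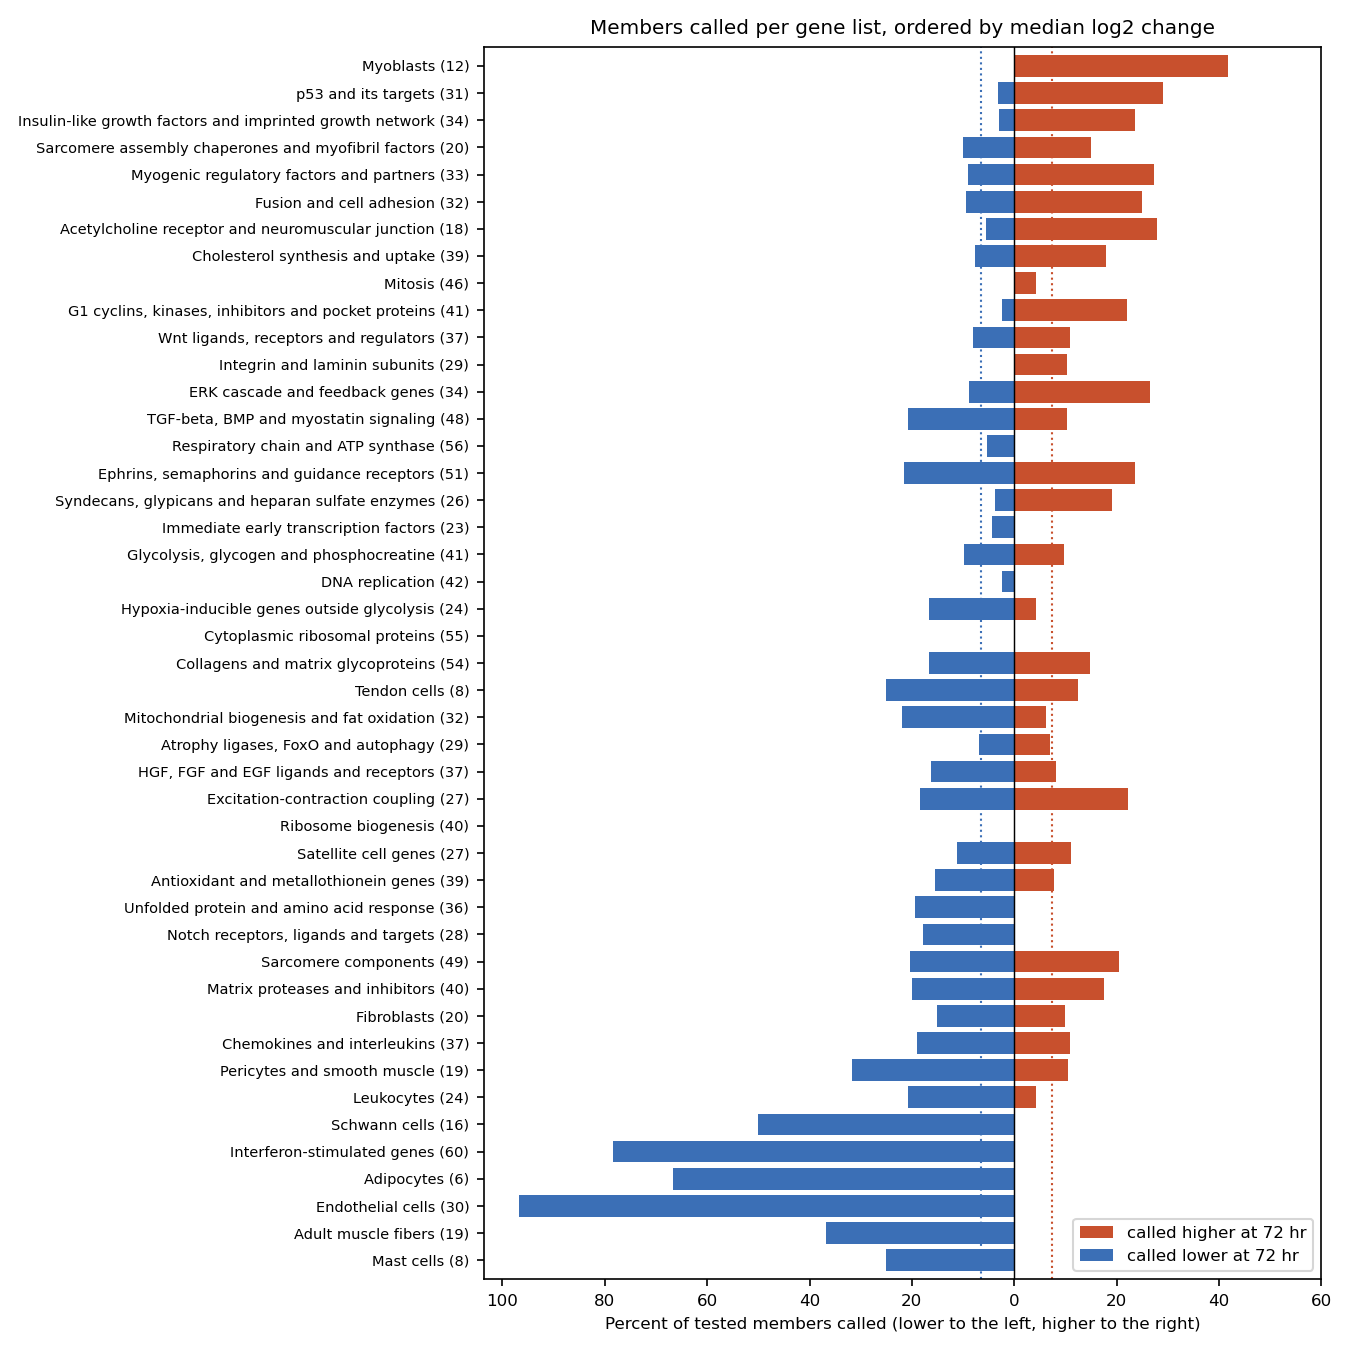
Percent of tested members of each gene list (number tested in parentheses) that were called higher (bars to the right) or lower (bars to the left) at 72 hr in dispersed myoblasts, ordered by median log2 change. Dotted lines mark the percent of all genes called higher (7.42) and lower (6.49); the endothelial list has 29 of 30 members to the left and the myoblast list 5 of 12 to the right.

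Notch signaling, in which ligand and receptor on neighboring cells keep progenitors undifferentiated, had 5 of 28 genes called lower and none higher (median -0.12). The receptor Notch4 fell by 1.70 ± 0.15, the receptor-modifying glycosyltransferase Mfng by 2.02 ± 0.16, and the targets Nrarp and Hey1 by 1.85 ± 0.18 and 1.81 ± 0.18. Hey1 was at 12.65, 12.89, 13.09 and 13.35 at 48 hr and at 10.81, 11.13, 11.29 and 11.51 at 72 hr. These genes are also known in vascular endothelium, whose 29 called markers fell by 0.95 to 2.22.

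Genes of DNA replication and division changed little. Of 42 replication genes 1 was called, Mcm5 of the replicative helicase (-0.34 ± 0.06, call lost in 5 of 8 fits). Of 46 mitosis genes 2 were called, both higher, Ect2 (0.31 ± 0.05) and Anln (0.29 ± 0.06), which act in cytokinesis; 41 of the 46 changed by more than 0, with a median of 0.10. Anln lost its call without any 1 of the 8 arrays and Ect2 without 48-hr replicate 2 or 4 or 72-hr replicate 5. Mki67, the proliferation antigen, was at 14.47, 14.53, 14.51 and 14.35 at 48 hr and at 14.54, 14.42, 14.65 and 14.89 at 72 hr, so the groups overlapped (0.16 ± 0.10, adjusted p = 0.284, limma). None of 40 ribosome biogenesis genes and none of 55 ribosomal proteins was called by limma.

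**Figure D4:**
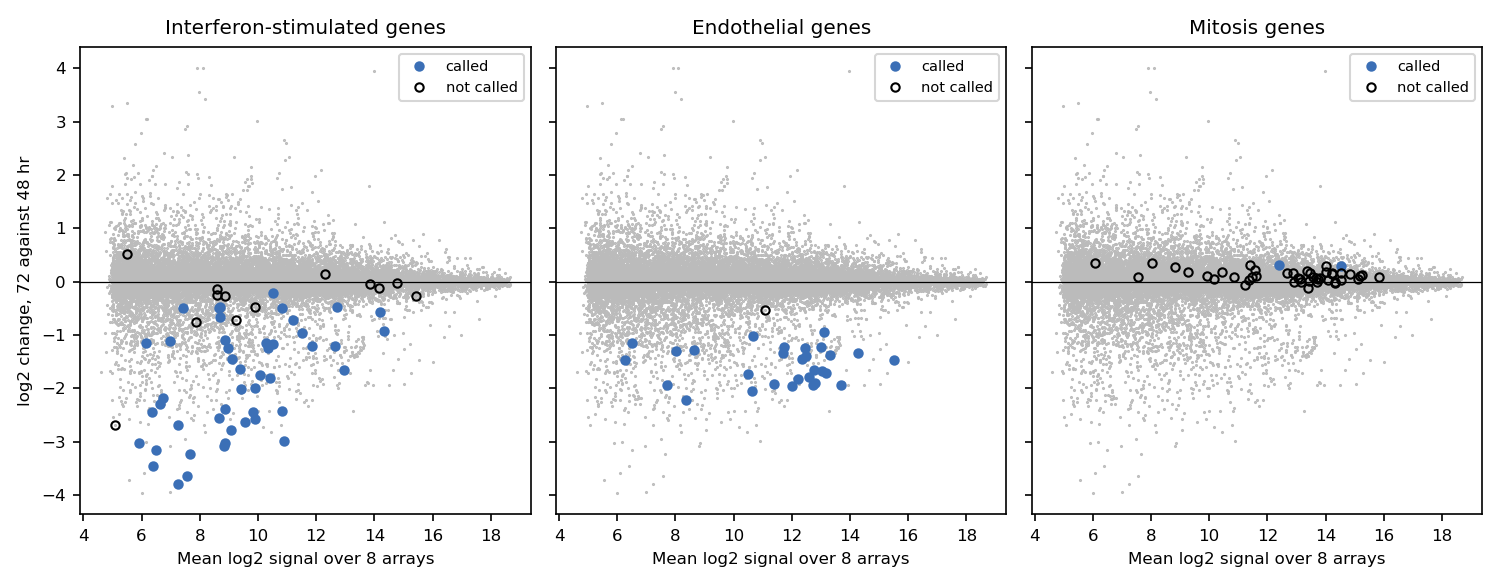
log2 change from 48 to 72 hr (y axis) against mean log2 signal over 8 arrays (x axis) for all genes tested (gray) and for 3 lists, with filled points for called members and open points for the rest. All 30 endothelial members and all but 2 of the 60 interferon members lie below 0, with 29 and 47 called lower, whereas 44 of 46 mitosis genes were not called.

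Regulators of the G1 phase did change: 9 of 41 were called higher and 1 lower. The inhibitors of the cyclin D kinases Cdkn2b (p15) and Cdkn2d (p19) rose by 0.85 ± 0.08 and 0.37 ± 0.04. Cdkn2b was at 11.41, 11.47, 11.36 and 11.65 at 48 hr and at 12.33, 12.29, 12.20 and 12.49 at 72 hr, without overlap. Mycl, a Myc family factor, rose by 1.25 ± 0.10 and Ccng1, a p53 target, by 0.57 ± 0.05, and Gadd45b changed by -0.41 ± 0.07 (call lost in 5 of 8 fits). The inhibitors most tied to muscle differentiation were not called: Cdkn1a (p21) changed by 0.17 ± 0.06 (adjusted p = 0.0846, limma) and Cdkn1c (p57) by -0.01 ± 0.14 (adjusted p = 0.958, limma).

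Trp53 itself did not pass (-0.06 ± 0.07, adjusted p = 0.602, limma). Of 31 genes of p53 and its targets, 9 were called higher and 1 lower, with a median of 0.21. Those that rose include Ccng1, Pmaip1, a death effector (0.56 ± 0.07), and Polk, a repair polymerase (0.32 ± 0.04), and Trp63 of the p53 family changed by -0.22 ± 0.05 (call lost in 7 of 8 fits). Peg3, which is imprinted and also listed here, rose by 1.07 ± 0.09. Without 1 array the count of higher members was 5 to 8, with 5 without 72-hr replicate 7, and in one fit of all 16 arrays it was 1.

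The kinase gene Mapk3 (ERK1) fell. It was at 13.49, 13.45, 13.51 and 13.59 at 48 hr and at 13.17, 13.20, 13.16 and 13.09 at 72 hr (-0.35 ± 0.05, adjusted p = 0.00112, limma), without overlap. Of 34 genes of the cascade and its feedback 9 were called higher (26.5%), 5 without 72-hr replicate 6, and 3 lower (8.82%, near the background of 6.49%). The transcription factors Etv1 (1.15 ± 0.13) and Etv4 (0.67 ± 0.06), the phosphatase Dusp4 (0.48 ± 0.05) and Phlda1 (0.44 ± 0.05), all induced by ERK signaling in many cells, rose, and the inhibitor Il17rd fell (-0.61 ± 0.08). Of 23 immediate early factors 1 was called, Atf3 (-1.04 ± 0.10). Dusp26, a phosphatase outside the lists, showed one of the largest falls (-3.08 ± 0.10), from between 8.33 and 8.71 to between 5.24 and 5.56.

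Insulin-like growth factor genes and the imprinted growth network, which is active in fetal muscle and in muscle stem cells, had 8 of 34 members called higher and 1 lower (median 0.19). Igfbp2, which binds the growth factors, lay between 7.97 and 8.06 on all 48-hr arrays and was at 10.12, 10.37, 10.36 and 10.61 at 72 hr (2.34 ± 0.09, adjusted p = 1.24e-05, limma). The non-coding H19 rose by 1.80 ± 0.16 and all 6 of its probes rose by 1.80 to 1.96. Zim1 (1.84 ± 0.18) and Peg3, 2 imprinted zinc-finger genes, rose too. Igfbp3 fell by 0.66 ± 0.07.

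Lists of secreted signals and their receptors had calls in both directions. In the TGF-beta, BMP and myostatin list 5 of 48 were higher (10.4%, near the background of 7.42%) and 10 lower (20.8%). The BMP antagonist Grem1 (1.35 ± 0.22, call lost in 4 of 8 fits) and Smad9 (1.32 ± 0.11) were higher. The ligands Bmp4 (-1.53 ± 0.13) and Bmp6 (-1.35 ± 0.11) and the inhibitory Smad6 (-0.87 ± 0.06) fell. The count higher was 2 or 3 without 48-hr replicate 3 or 4 or 72-hr replicate 6 or 7. Of 51 guidance genes 12 were higher and 11 lower, the latter 7 without 48-hr replicate 2 or 4 or 72-hr replicate 5, 6 or 7. Robo1, the Slit receptor, rose from between 10.58 and 10.67 to between 11.74 and 12.29 (1.35 ± 0.11), Sema3e by 1.22 ± 0.08 and the semaphorin receptor Plxnc1 by 0.96 ± 0.06. Sema3g (-2.43 ± 0.26) and Efna1 (-2.05 ± 0.16), known from vessels, fell. Of 37 Wnt genes 4 were higher (10.8%, near the background of 7.42%), with Wnt10b at 1.48 ± 0.20 (0.48 with normexp), and 1 or 2 without 48-hr replicate 2 or 3 or 72-hr replicate 5 or 7. A further 3 were lower (8.11%, near the background of 6.49%), among them the receptors Fzd4 (-0.90 ± 0.11) and Fzd6 (-1.05 ± 0.13). Of 37 HGF, FGF and EGF genes 3 were higher (8.11%, near the background of 7.42%) and 6 lower (16.2%, but 3 genes without 48-hr replicate 2 or 4). The GDNF receptor Ret rose by 0.88 ± 0.09 and its ligand Gdnf fell by 0.79 ± 0.05.

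The matrix was changed in part. Fn1, fibronectin, rose by 0.90 ± 0.11, Col7a1 by 1.05 ± 0.09 and Fbln1 by 0.78 ± 0.07, whereas the proteoglycan Aspn (-2.37 ± 0.39), the collagen VI chains Col6a2 (-1.73 ± 0.25) and Col6a1 (-1.39 ± 0.21) and Sparcl1 (-1.44 ± 0.19) fell; 8 of 54 members were called higher and 9 lower. With 1 array left out these counts were 4 to 10 and 3 to 8, with 3 lower without 48-hr replicate 2, 3 or 4, 5 lower without 72-hr replicate 7, and 4 or 5 higher without 48-hr replicate 3 or 4 or 72-hr replicate 5, 6 or 7. Aspn lost its call without 48-hr replicate 2, 3 or 4. The integrin chain Itgb4 rose by 1.68 ± 0.15 and the laminin chains Lama2 and Lamb1 by 0.61 ± 0.04 and 0.31 ± 0.04. These were the 3 calls among 29 (10.3%, near the background of 7.42% higher). Heparan sulfate genes, whose products hold growth factors at the myoblast surface, had 5 of 26 called higher and 1 lower: Ndst3 (1.02 ± 0.06) and Hs6st1 (0.42 ± 0.06), which add sulfate, Sulf2 (0.95 ± 0.06), which removes it, and syndecan-2, Sdc2 (0.77 ± 0.04), were higher, and Extl1 was lower (-0.64 ± 0.13). The count higher was 3 without 48-hr replicate 3 or 72-hr replicate 5, Hs6st1 lost its call without 48-hr replicate 2 or 3 or 72-hr replicate 5, and Extl1 in 6 of 8 fits.

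Several of the largest rises were in genes outside the muscle lists. Sct, which encodes the gut hormone secretin, lay between 11.87 and 12.13 at 48 hr and was at 15.86, 15.74, 15.94 and 16.27 at 72 hr (3.95 ± 0.11, 15.4-fold, adjusted p = 8.81e-06, limma). Nppb, the cardiac natriuretic peptide, rose by 2.92 ± 0.14, the bone and microglia gene Tmem119 by 3.02 ± 0.10, the glutamate transporter Slc1a6 by 2.86 ± 0.25, the collagenase Mmp13 by 2.38 ± 0.23, and Dynap by 2.65 ± 0.10. Dner, a Notch-related receptor, had a mean of 4.50 at 48 hr, under the minimum of 5 that it passed through its 72-hr values, and was well above background on 2 of 4 arrays there. Its rise of 2.58 ± 0.21 was 1.13 with normexp. Vmn2r78, a member of a large family of pheromone receptors with similar sequences, rose by 3.05 ± 0.43. At 48 hr it was at 3.44 on replicate 4 and from 4.90 to 5.17 on the other arrays, around or under the minimum of 5. With normexp its rise was 1.61. Tcerg1l, not well above background on any 48-hr array, was at least 6.35-fold higher at 72 hr in the main processing (adjusted p = 0.000289, limma). With normexp the log2 change of Tcerg1l was 1.11 in place of 3.29.

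The same interval in myofiber-associated myoblasts was set against these changes by a test of the difference between the changes on all 16 arrays. Culture and slide cannot be told apart there, since each culture lay on its own slide. The change differed for 701 of 20317 genes (3.45%), being higher in dispersed culture for 220 and lower for 481. With 1 of the 16 arrays left out the count ran from 292, without dispersed 72-hr replicate 6, to 2357, without the myofiber-associated 48-hr array that pooled 2 preparations. Of the 24 genes with the largest rises and falls, 21 could be tested on 16 arrays and 7 differed. Myog rose by 3.92 in dispersed and changed by -0.64 in myofiber-associated myoblasts, a difference of 4.55 ± 0.54 (adjusted p = 0.000481, limma). Myom3 (difference 3.85 ± 0.41), Nppb (4.14 ± 0.71) and Slc1a6 (2.44 ± 0.33) also had the higher change in dispersed culture. Myh3 rose in both cultures, by 3.36 in dispersed and 6.73 in myofiber-associated myoblasts. Its difference of -3.38 ± 1.03 did not pass (adjusted p = 0.0412, limma). Tmem119 (-1.82 ± 0.33) and Dynap (-2.82 ± 0.48) rose in both and more on the fiber, though the difference for Tmem119 was not called without dispersed 72-hr replicate 5, 6 or 7 (adjusted p up to 0.0115, limma). Irf7 was the 1 interferon-stimulated gene of the 24 whose fall differed, with -3.07 in dispersed and -0.61 in myofiber-associated myoblasts (difference -2.46 ± 0.37, adjusted p = 0.00151, limma).

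**Figure D5:**
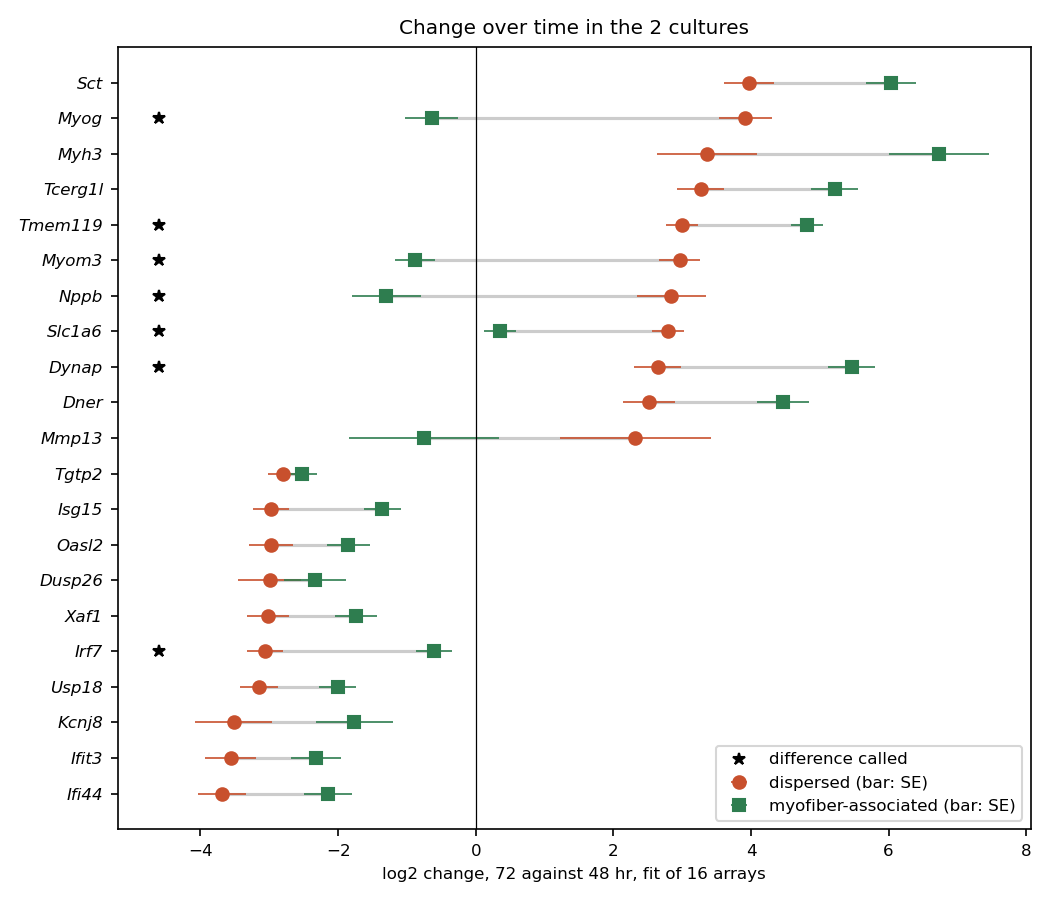
log2 change from 48 to 72 hr (x axis) of 21 genes in dispersed (circles) and myofiber-associated myoblasts (squares), from 1 limma fit of 16 arrays, with SE as error bars and stars at the 7 genes whose change differed between the cultures. Myog, Myom3, Nppb and Mmp13 lie on opposite sides of 0 in the 2 cultures (for Mmp13 the difference did not pass), and all 10 falls lie on the same side.

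Over whole lists, the difference passed for 5 of 58 interferon-stimulated genes, all with the lower change in dispersed culture (median -1.21 against -0.72), and for 1 of 29 endothelial genes (medians -1.46 and -2.12). Among 56 sarcomere components it passed for 6, all with the higher change in dispersed culture (medians -0.21 and -1.38). Among 26 satellite cell genes it passed for 6, all with the lower change in dispersed culture (medians -0.07 and 0.20), and among 33 myogenic factors for 4 with the lower and 1 with the higher change in dispersed culture.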

How the data were processed

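RNA of 8 dispersed myoblast preparations was measured on one-color Agilent arrays with Cy3. Per the file headers, the deposited spot intensities had been background-subtracted and spatially detrended by the scanner software, and were not normalized between arrays. The authors also deposited log2 ratios in which every 72-hr array is divided by its culture's 48-hr mean, loess and quantile normalized with limma. Here the log2 processed signals of non-control spots, without spots marked as non-uniform or population outliers, were loess normalized to the 48-hr mean (span 0.3, 4 iterations) and quantile normalized over the 8 arrays. Spots of 1 probe were averaged, and the brightest of the 55681 probes stood for each of 34836 gene names. The 20340 genes with a median log2 signal of at least 5 over the 8 arrays were tested with limma (lmFit, eBayes) and called at an adjusted p under 0.01. The steps were tested on simulated data.

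No spot was saturated. The number of arrays limits the precision, and a p-value sets a change against the spread between these samples only. The bound for a gene not above background at 48 hr sets its 72-hr mean against the lowest signal well above background on each 48-hr array. The genes named were the 12 largest rises and 12 largest falls, up to 4 members of smallest p in each direction per list (where fewer than 2 passed, the 2 of smallest p), and Pax7, Myf5, Myod1, Myog, Myf6, Mki67, Cdkn1a, Cdkn1c, Trp53 and Mapk3; some genes that the rule names are not reported here. The members and lists were chosen with earlier results of these data known. Of the gene names, 14622 of those tested matched a RefSeq symbol. The change in dispersed culture was set against that in myofiber-associated culture by an interaction term in 1 limma fit of 16 arrays. The alternatives were other background corrections, normalizations, filters, probe summaries and tests, slide row as a block, and leaving out each array.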

Additional observations from a re-analysis of the deposited data

Results flagged for a closer look

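Each of the 193 genes that the text names by the rule was checked at both times for an array that lay far from the other 3. The test flags about 1 in 20 groups by chance, and 17 of 386 groups were picked out. In 8 of them the array was 72-hr replicate 8, with log2 signals of 9.29 for Chrng, 7.05 for Cox8b, 9.61 for Ctf1, 7.53 for Dner, 9.40 for Fbxo32, 8.17 for Mmp13, 8.55 for Mycl and 8.84 for Tmem8c. In 4 it was 72-hr replicate 5, with 5.09 for Aspn, 14.26 for Ccng1, 11.09 for Col6a1 and 8.04 for Col6a2. The array was 48-hr replicate 1 for Cnn1 (7.95), Stac3 (10.78) and Tm7sf2 (10.34), and 48-hr replicate 4 for Fn1 (14.89) and Vmn2r78 (3.44).

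For 7 named genes the change from 48 to 72 hr differed between dispersed and myofiber-associated myoblasts by the interaction term of the limma fit. The difference, dispersed minus myofiber-associated, was 4.55 for Myog, 4.14 for Nppb, 3.85 for Myom3, 2.44 for Slc1a6, -1.82 for Tmem119, -2.46 for Irf7 and -2.82 for Dynap on the log2 scale.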

How the results depend on the processing

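The count of called genes, 2829, was 2108 to 3783 under 10 of the alternatives and 999 in one fit of all 16 arrays, where 39.3% of the calls were higher in place of 53.3%. With 75th percentile scaling 60.8% were higher. Leaving out 1 array gave 1735 to 2598, with 1735 without 48-hr replicate 2, 1840 without 48-hr replicate 3 and 1829 without 72-hr replicate 7. The count whose change differed between cultures, 701, was 411 with no filter on low signal and 292 to 2357 with 1 of 16 arrays left out, the highest without the pooled myofiber-associated 48-hr array and the next, 1757, without myofiber-associated 72-hr replicate 4. Medians near 0 changed sign for the Wnt list (-0.0321 with normexp, -0.0444 with no filter), the atrophy list (0.0183 with percentile scaling, 0.0368 with the mean of probes) and excitation-contraction coupling (0.0177 within slide row 2, and 0.0153 and 0.045 without 48-hr replicate 1 and 72-hr replicate 8), with a leave-one-out range of -0.1857 to 0.045 for coupling and -6e-04 (without 72-hr replicate 8) to 0.0969 for the Wnt list. Cdkn1c, not called, was at 0.0059 with percentile scaling and -0.0957 to 0.0698 with 1 array left out (above 0 without 48-hr replicates 2 or 4 or 72-hr replicates 5 or 8), and Trp53 at -0.0919 to 0.006 (0.006 without 72-hr replicate 8). The rule for naming genes selects more than the text names, and of its 231 called genes 186 remained called with no filter and 110 of 226 in the fit of 16 arrays. With 1 array left out, 175 to 207 of the 227 or 228 that could still be tested remained called. The cause was not tested. No paired analysis was possible because the 48-hr replicates are numbered 1 to 4 and the 72-hr replicates 5 to 8, so the times share no replicate number.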

Other observations

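Of 39 genes of cholesterol synthesis and uptake, 7 were called higher (17.9%, against a background of 7.42%). Among them were Dhcr7 (0.39 ± 0.04), Tm7sf2 (0.61 ± 0.08) and the desaturase Scd2 (0.38 ± 0.05). A further 3 were called lower (7.69%, near the background of 6.49%). Those that fell include Abca1 (-1.76 ± 0.15) and Abcg1 (-1.14 ± 0.13), which export cholesterol from the cell. Among 37 chemokines and interleukins, 4 were higher (10.8%, near the background of 7.42%). A further 7 were lower (18.9%, but 3 or 4 genes without 48-hr replicate 2 or 3 or 72-hr replicate 5). Tnfsf11, the ligand RANKL, rose by 2.05 ± 0.19, Il1b by 1.19 ± 0.13 and Ctf1, cardiotrophin, by 0.88 ± 0.09, while Tnf fell by 1.14 ± 0.07 and Cxcl16 by 1.22 ± 0.10. With normexp the changes were 0.85 for Tnfsf11, 0.69 for Il1b and -0.48 for Tnf.

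Of 36 genes of the unfolded protein and amino acid response 7 were called lower and none higher, with the amino acid transporter Slc7a3 at -1.19 ± 0.10, Chac1 at -0.46 ± 0.05 and Trib3 at -0.41 ± 0.07 (call lost in 5 of 8 fits that left out 1 array). The count was 3 to 5 with 1 array left out, 5 without 48-hr replicate 1 and 4 or fewer without any other, and 0 in the fit of all 16 arrays. Of 39 antioxidant genes 6 were lower (15.4%, but 3 genes without 48-hr replicate 2), including extracellular superoxide dismutase Sod3 (-1.30 ± 0.19), Txnip (-0.83 ± 0.10) and Mt1 (-0.57 ± 0.07). A further 3 were higher (7.69%, near the background of 7.42%), including Gstm1 (0.53 ± 0.05). The count higher was 1 without 48-hr replicate 2 or 3 or 72-hr replicate 7. Of 24 genes induced by low oxygen outside glycolysis 4 were lower, among them Epas1 (-1.27 ± 0.19), Ndrg1 (-1.26 ± 0.11) and Car12 (-1.03 ± 0.09), and Adm was higher (0.93 ± 0.14). Among 40 matrix proteases and inhibitors 7 were higher and 8 lower (4 or 5 without 48-hr replicate 2, 3 or 4 or 72-hr replicate 7), with Timp2 at 0.67 ± 0.06, Adamts9 at -1.21 ± 0.16 and the plasminogen activator Plat at -1.74 ± 0.14. Of 29 atrophy and autophagy genes 2 were called in each direction (4 lower without 48-hr replicate 1), with Tfeb at -0.68 ± 0.08. Each 2 are 6.9% of the list, near the backgrounds of 7.42% higher and 6.49% lower.

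Deviations from the mean of each time, over 20328 genes, correlated between 48-hr replicate 1 and 72-hr replicate 5 (r = 0.303), 2 and 6 (0.24), 3 and 7 (0.218), and 4 and 8 (0.321). The other 12 pairings ran from -0.399 to 0.151. These correlations are across genes, which are not independent replicates, and the labels do not link these arrays.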
